A study of Mus musculus with 2 samples.

Results

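The Odz3 locus was examined in 2 maps of 5-hydroxymethylcytosine (5hmC) from mouse embryonic fibroblasts, 1 from cells at passage 5 and 1 from cells at passage 0. Odz3, now named Tenm3, encodes teneurin 3. The locus was taken as every deposited peak with its midpoint in the 1 Mb window chr8:49000001-50000000 of build mm9, which held 7 of the 6726 peaks at passage 5 and 146 of the 60157 peaks at passage 0. The window was chosen by its number of passage 0 peaks, for which it ranked second of all 1 Mb windows, so that number is a description and no finding. Inside the window the gene was placed at about 49313000 to 49761000, a span of 448 kb that leaves 552 kb of the window outside it.

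Both cultures were primary fibroblasts grown from C57BL/6 embryos of day 13.5 in serum-containing medium, and the stated difference between them was the passage at harvest. After sonication of the DNA, pieces with 5hmC were pulled out by GLIB, which adds a glucose with a biotin tag to the modified base, and were sequenced. There was 1 library per passage, so no difference between passages has a replicate check and no p-value is given. Peaks are enriched stretches of DNA, and the read depth behind them is unknown. Neither expression nor protein was measured, so the fibroblast label could not be set against marker genes here.

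5hmC arises when TET enzymes oxidise 5-methylcytosine, and in many cell types it is found in the bodies of genes and at distal regulatory elements more than at CpG-rich promoters. Teneurin 3 is a large transmembrane protein with a short cytoplasmic part and a long extracellular part that mediates adhesion between cells. It is best known from the nervous system, where teneurins guide the matching of synaptic partners. Its role in fibroblasts is not addressed by these data.

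The gene reads from high to low coordinates, according to the minus strand that RefSeq gives for Tenm3, so its start lies near 49761000. Distances below are counted from that position, positive in the direction of transcription. These border positions are rounded. The RefSeq table of build GRCm38.p6 lists the gene on chromosome 8 as Tenm3, with Odz3 as a synonym. The distance there from its listed promoter to the far end of the gene was 449 kb, close to the 448 kb used here. The same table also holds longer Tenm3 models that reach further upstream than the window's upper border. With them the gene spans 1297 kb in that build, so peaks called upstream here may lie within a longer transcript. The nearest protein-coding genes in that table were Dctd, encoding the enzyme deoxycytidylate deaminase, and then Wwc2 past the end of Tenm3, and Aga, encoding a lysosomal aspartylglucosaminidase, on the upstream side. Their positions in mm9 were not used here.

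The promoter is shown because the peaks were set out from it and because 5hmC forms at CpG dinucleotides, which are in capitals. The sequence holds the 250 bases before the RefSeq start of Tenm3 at chr8:48674691-48674940 (GRCm38.p6, minus strand), 5′ to 3′. These coordinates belong to another build than the peaks.
Tenm3 promoter: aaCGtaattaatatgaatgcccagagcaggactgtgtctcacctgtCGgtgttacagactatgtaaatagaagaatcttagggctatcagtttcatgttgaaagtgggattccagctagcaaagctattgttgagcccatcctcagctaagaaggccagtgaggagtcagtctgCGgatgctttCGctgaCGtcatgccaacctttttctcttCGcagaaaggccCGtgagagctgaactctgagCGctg
It contained 8 CpG dinucleotides (the motif CG, read on either strand) and 47.6% G and C. The median over 32851 RefSeq promoters of that length was 6 CpGs and 52.4% G and C, and 40.3% of those promoters held more than 8. No peak of either list lay over the start of the gene. The nearest passage 0 peaks were at bases 49756266 to 49757344, which is 3.66 kb inside the gene with a score of 134, and at 49773087 to 49774017, which is 12.1 kb upstream with a score of 159. The score is the authors' own value for a peak and was used within 1 list only.

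At passage 5 the window held 7 peaks of modest score, 5 inside the gene and 2 outside. Their widths ran from 349 to 585 bp, with a median of 529 bp against 562.5 bp over all autosomal passage 5 peaks. Their scores ran from 89.25 to 147.5, with a median of 96.7 against 117 over the same autosomal peaks. None of the 7 was among the 10% of the passage 5 list with the highest scores, which for 7 peaks is near the list share. An overlap of 1 base or more with a passage 0 peak was found for 5 of the 7, or 71.4% (95% exact interval 29.0% to 96.3%). Over the whole passage 5 list it was 69.9%, so the locus was near the background in this respect. All intervals take each peak as an independent count and hold no other error.

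The passage 5 peak nearest the start lay 15.8 kb into the gene, at bases 49744946 to 49745486, with a score of 92.5. All of its 541 bases were inside a passage 0 peak with a score of 150.2 in that list. The next lay 35.1 kb in, at 49725617 to 49726201, with a score of 89.25, and 89.9% of it was inside a passage 0 peak that scored 102. Both had low scores for their list, in which 88.5% and 96.5% of peaks scored as high or higher.

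Another passage 5 peak, 83.4 kb into the gene at bases 49677320 to 49677785, scored 112 and had no passage 0 peak over it. The nearest one ended 500 bases away. The remaining pair inside the gene lay close together, 359 and 364 kb from the start and towards the far end of the gene. The peak at 49401639 to 49402167 had the highest passage 5 score of the locus, 147.5. Its passage 0 partner scored 111, a value that 62.1% of the passage 0 list reached or passed. The neighbouring passage 5 peak at 49396631 to 49396979 scored 119 and lay inside a passage 0 peak of 1849 bp that scored 274.

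Outside the gene there was 1 passage 5 peak on each side. Upstream, the peak 144 kb before the start, at 49904668 to 49905155, scored 96.7 and was 2.39 kb from the nearest passage 0 peak. Beyond the end of the gene, the peak at 49018050 to 49018605 scored 91.3 and lay inside a passage 0 peak of 1499 bp that scored 443. Between these peaks lay long stretches with no passage 5 call, the longest of 378 kb and 275 kb.

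**Figure D1:**
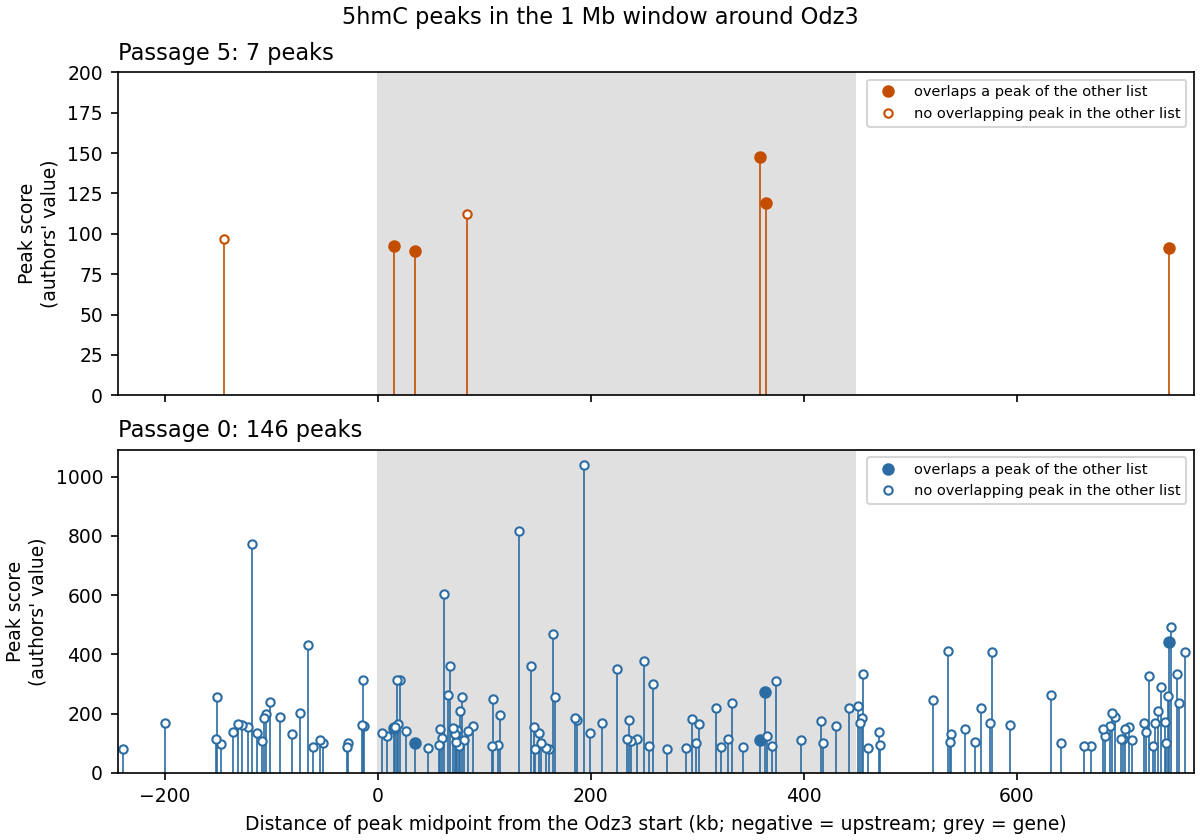
Each stem is 1 peak, placed by the distance of its midpoint from the Odz3 start (kb, negative upstream, gene shaded) and as high as the authors' score, with passage 5 above and passage 0 below on separate score axes. Filled circles overlap a peak of the other list. The 7 passage 5 peaks reach 147.5 at most, and the tallest passage 0 peaks, up to 1038, are all open circles.

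The passage 0 peaks lay inside and outside the gene in equal number. Inside the gene there were 73 peaks in 448 kb, or 16.3 per 100 kb, and outside it there were also 73, in 552 kb, or 13.2 per 100 kb. The density ratio of inside to outside was 1.23 (95% exact interval 0.878 to 1.73), an interval that includes equal densities. At passage 5 the numbers were 5 inside and 2 outside, or 1.12 and 0.362 per 100 kb. That ratio of 3.08 had an interval of 0.504 to 32.3, too wide to tell the parts apart.

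The surroundings were not uniform. The 313 kb beyond the end of the gene held 46 passage 0 peaks (14.7 per 100 kb) and the 239 kb upstream of its start held 27 (11.3 per 100 kb). The gene's density was 1.11 times that beyond its end (0.756 to 1.64) and 1.44 times that upstream (0.916 to 2.33). Peaks covered 17.5% of the gene, 14.1% of the rest of the window, 16.2% of the stretch beyond the end and 11.3% of the upstream stretch. Upstream peaks were sparse towards the window border. Stretches of 46.7 and 38.4 kb, separated by 1 peak, held no call from 153 kb upstream to the last peak of the window. That last peak, at 49999601 to 50000299 with a score of 80.7, crosses the upper border and was counted by its midpoint. The first peak past that border began at 50007155 and scored 187. At the lower border, the first peak inside began at 49002369 and scored 407, and the last one outside ended at 48984660 and scored 149.6.

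Passage 0 peaks continued past the end of the gene. The last peak inside, at 49317742 to 49318756 with a score of 219.5, lay 4.74 kb before the end border. The first one past it, at 49309371 to 49310716 with a score of 224, lay 2.28 kb beyond and belonged to a run of 5 peaks in 10.1 kb.

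Scores and widths also overlapped widely between the parts. The median passage 0 score was 147 inside the gene (quartiles 104 and 219.5) and 162 outside it (113 and 224). The median width was 890 bp inside (quartiles 776 and 1145) and 956 bp outside (806 and 1134). The 46 peaks beyond the end were the widest of the 3 parts, with a median of 1048.5 bp, and the upstream peaks had a median of 873 bp. In each of the 2 parts, 12 of 73 peaks were among the 10% of the passage 0 list with the highest scores and 4 of 73 were at least 2 kb wide.

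**Figure D2:**
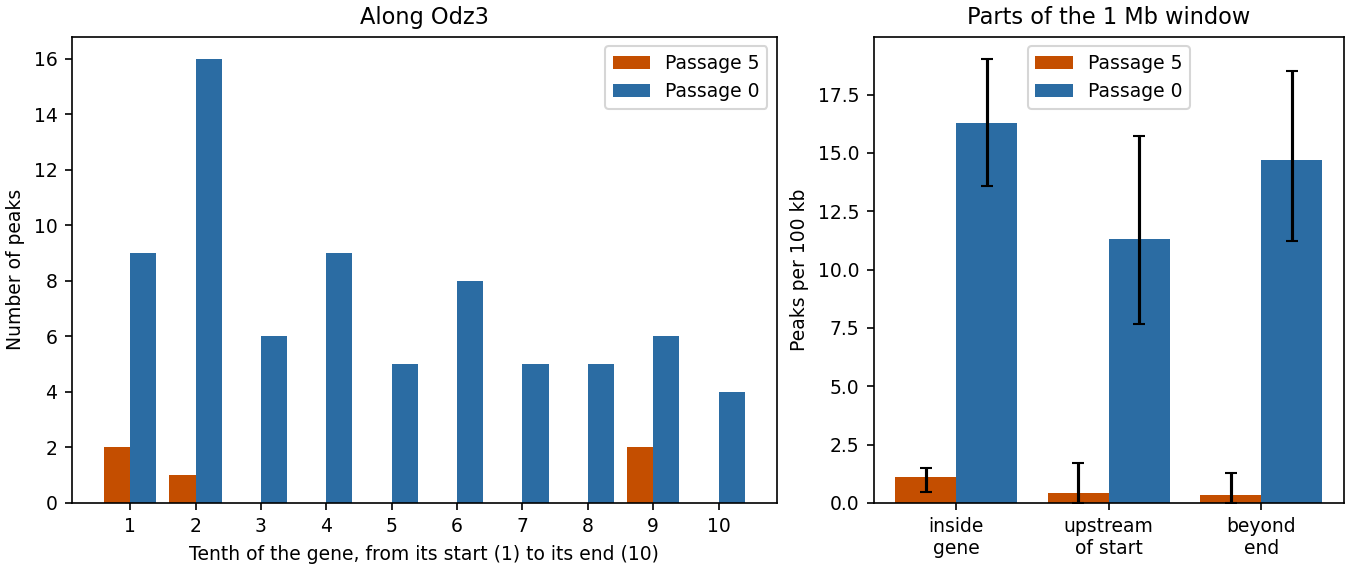
Left, number of peaks in 10 equal segments of 44.8 kb from the start of Odz3 to its end, passage 5 left of passage 0 in each pair; right, peaks per 100 kb in the 3 parts of the window, with bars for the 95% exact interval of each part's share of the 7 or 146 peaks. The second segment holds 16 passage 0 peaks, the most of the 10, and the passage 0 intervals of the 3 parts overlap.

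Along the gene, the density of passage 0 peaks was higher towards the start, by an amount within counting error. The first 224 kb held 45 peaks and the last 224 kb held 28, or 20.1 and 12.5 per 100 kb, a ratio of 1.61 (0.981 to 2.68). The median score was 150.2 in the first stretch and 120 in the last. Of 10 equal segments of 44.8 kb, the second from the start held 16 peaks, the first and the fourth held 9 each, and the last held 4. All segments held at least 4 passage 0 peaks. Passage 5 peaks lay in 3 of the segments, with 2 in the first, 1 in the second and 2 in the ninth.

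Most peaks of the second segment belonged to the run with the most peaks in the locus. With gaps of at most 5 kb allowed, 16 passage 0 peaks formed a run of 33.0 kb at bases 49670990 to 49703940, between 57.1 and 90.0 kb into the gene. Peaks covered 51.0% of that run, and their scores ran from 92.0 to 602 with a median of 146. The passage 5 peak at 49677320 fell within this run but between its peaks, so 0 of the 16 passage 0 peaks had a passage 5 partner. Over the whole passage 0 list 7.63% had one, and with 16 peaks a count of 0 is near that background. The next runs by number of peaks lay beyond the end of the gene, and the first of them was longer in bases. There, 15 peaks filled 39.7 kb at 49002369 to 49042104, with a median score of 237, and 10 filled 28.1 kb at 49052526 to 49080611. These 3 runs of at least 10 peaks held 41 of the 146 peaks. Another 23 peaks stood alone, with no other within 5 kb.

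Inside the gene the longest stretch without a passage 0 peak was 21.5 kb, at bases 49364417 to 49385945 and 375 to 397 kb from the start. Gaps between neighbouring peaks had a median of 3.07 kb inside the gene, 1.77 kb beyond its end and 3.28 kb upstream. Longer gaps of 48.95 and 37.6 kb occurred beyond the end. In bins of 20 kb, 45 of the 50 bins of the window held a passage 0 peak and 7 held a passage 5 peak.

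**Figure D3:**
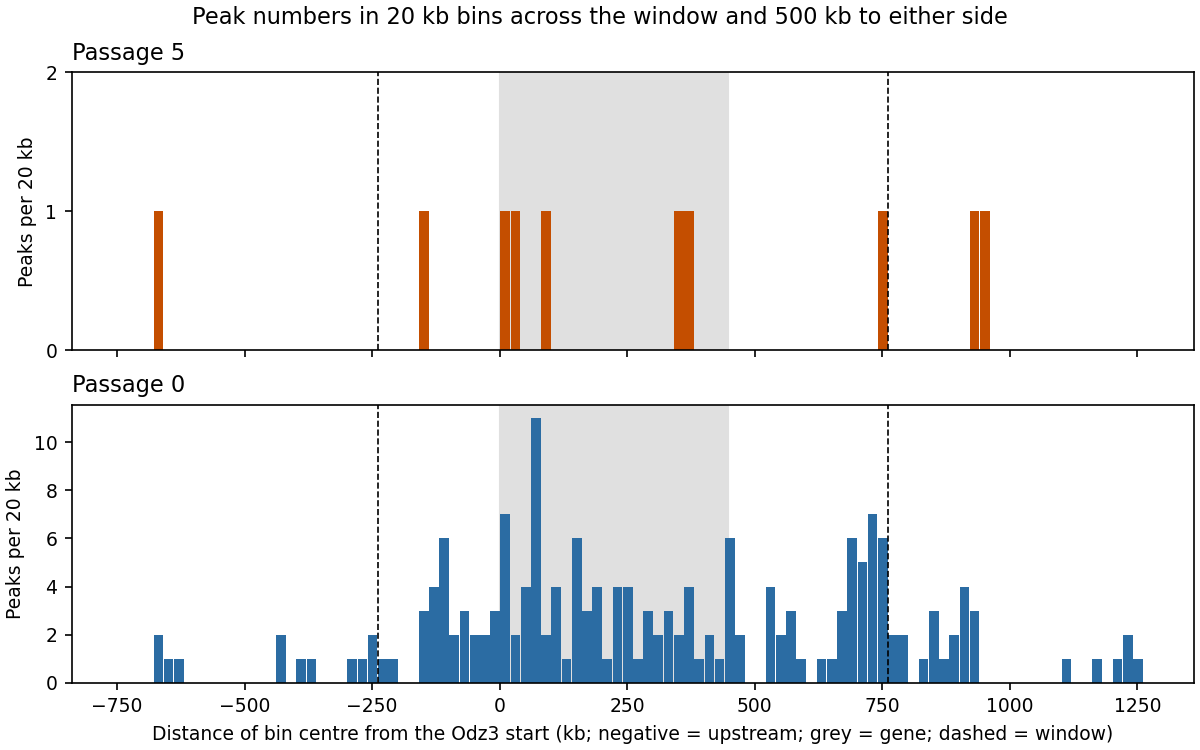
Number of peaks in bins of 20 kb against the distance of the bin centre from the Odz3 start (kb), for the window (between dashed lines) and 500 kb to either side, with passage 5 above passage 0. The highest passage 0 bin, with 11 peaks, lies 71 kb into the gene, and passage 0 peaks are sparse beyond about 150 kb upstream.

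The dense stretch was wider than the 448 kb span used for the gene, and peaks were sparser on both sides of the window. The longer Tenm3 models also reach above the window. The window was chosen by its peak number, so the lower density around it is a description and no finding. The 1 Mb window held 14.6 passage 0 peaks per 100 kb. The 500 kb below it, on the side of the gene's end, held 24 peaks or 4.8 per 100 kb, and the 500 kb above it held 12 or 2.4 per 100 kb. At passage 5 the window held 7 peaks, the 500 kb below it 2 and the 500 kb above it 1.

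The 5 highest-scoring passage 0 peaks of Odz3 had no passage 5 counterpart. In the 10% of the passage 0 list with the highest scores 24.4% had one, so 0 of 5 peaks says little about the locus. The highest in the gene lay at bases 49564696 to 49569017, 194 kb from the start, and was 4322 bp wide and scored 1038. It ranked 69 in the passage 0 list, and the nearest passage 5 peak was 108 kb away. The next, at 49626888 to 49629741, was 2854 bp wide and scored 815, and passage 5 had its closest call 47.6 kb away. Next came the peak at 49697447 to 49700127, which scored 602 and belonged to the run of 16. The peaks at 49595571 to 49597397 and 49510330 to 49512008 scored 468 and 377, and the passage 5 peaks closest to them were 79.9 and 108 kb away.

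The same was seen outside the gene, with 1 exception among the 3 highest. The upstream peak at 49877501 to 49881059, 118 kb before the start, was 3559 bp wide and scored 773, with the nearest passage 5 peak 23.6 kb away. Beyond the end, the peak at 49015025 to 49017127 scored 494 and lay 0.922 kb from a passage 5 peak. Its neighbour at 49017145 to 49018643, with a score of 443, carried that passage 5 peak. The 3 widest passage 0 peaks of the locus were those that scored 1038, 773 and 815. Width and score went together across the 146 peaks, with a Spearman correlation of 0.84, against 0.79 across all autosomal passage 0 peaks. Both measures come from the same reads, and peaks are not replicates.

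Few passage 0 peaks of the locus were called again at passage 5. Only 5 of the 146 overlapped one, or 3.42% (95% exact interval 1.12% to 7.81%), against 7.63% of the whole passage 0 list, a value inside that interval. The share was 1.65% when both lists were limited to scores of at least 100 and 5.48% when gaps of up to 500 bases counted as overlap. No list-wide share is given at these settings, so neither value can be set against 7.63%. The 5 were 4 of the 73 inside the gene and 1 of the 73 outside. Their scores were 102, 111, 150.2, 274 and 443, with a median of 150.2. The 141 without a passage 5 peak had a median score of 156 and a range of 80.7 to 1038, which encloses those values. Higher-scoring peaks were more often called again in the list as a whole, and among its top 10% by score, from 289.73 upward, 24.4% had a passage 5 peak. In the Odz3 window 24 peaks were in that class, and 1 of them overlapped a passage 5 call, or 4.17% (0.105% to 21.1%). The list-wide 24.4% lies above that interval, which rests on 1 overlapping peak. Had each score class of the window kept its list-wide share, 13.7 of the 146 peaks would have had a passage 5 peak. That is 9.35%, above the upper limit of 7.81% for the observed share. That limit takes each peak as an independent count, though many lie in runs. The window was also picked by its number of passage 0 peaks, so no departure from the list is read from these values.

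The other crowded windows served as a comparison. In the 38 other windows with at least 100 passage 0 peaks, 153 of 653 peaks of the top 10% class had a passage 5 peak, or 23.4% (20.2% to 26.9%). All their peaks together had one in 7.37% of cases (6.61% to 8.19%), against 8.95% from their score classes. The Odz3 share of 4.17% lay below the pooled share, and the pooled 23.4% lay above the Odz3 interval of 0.105% to 21.1%. That interval still overlaps the pooled one, and this comparison was added after the values were seen. Counts varied among the windows most like it in passage 0 number. In that class, 4 of 23 peaks had a passage 5 peak in the window at 120 to 121 Mb of chromosome 10, 4 of 20 at 111 to 112 Mb of chromosome 8, 3 of 20 at 166 to 167 Mb of chromosome 2, and 1 of 23 at 169 to 170 Mb of chromosome 2. A share close to that at Odz3 was found in 1 of these 4 windows. Over all their passage 0 peaks the shares, in the same order, were 5.37%, 3.94%, 3.79% and 1.53%, against 3.42% at Odz3. A low share of all peaks was thus not particular to this locus.

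By number, the locus had 4.79 passage 5 peaks per 100 passage 0 peaks (1.89 to 10.1), against 11.2 over all autosomes. It was 6.85 inside the gene (2.16 to 16.7) and 2.74 outside it (0.326 to 10.3), intervals that overlap. The window was picked on the number that this ratio is divided by. Among the 39 windows with at least 100 passage 0 peaks the median was 8.91 and the range 2.29 to 24, and 7 of the others lay below the Odz3 window. Restricting both lists to scores of at least 100 left 3 passage 5 and 121 passage 0 peaks in the window, or 2.48 per 100, against 11.9 over the autosomes. The read depths are unknown, so fewer modified sites and a lower sensitivity of the passage 5 library cannot be told apart.

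**Figure D4:**
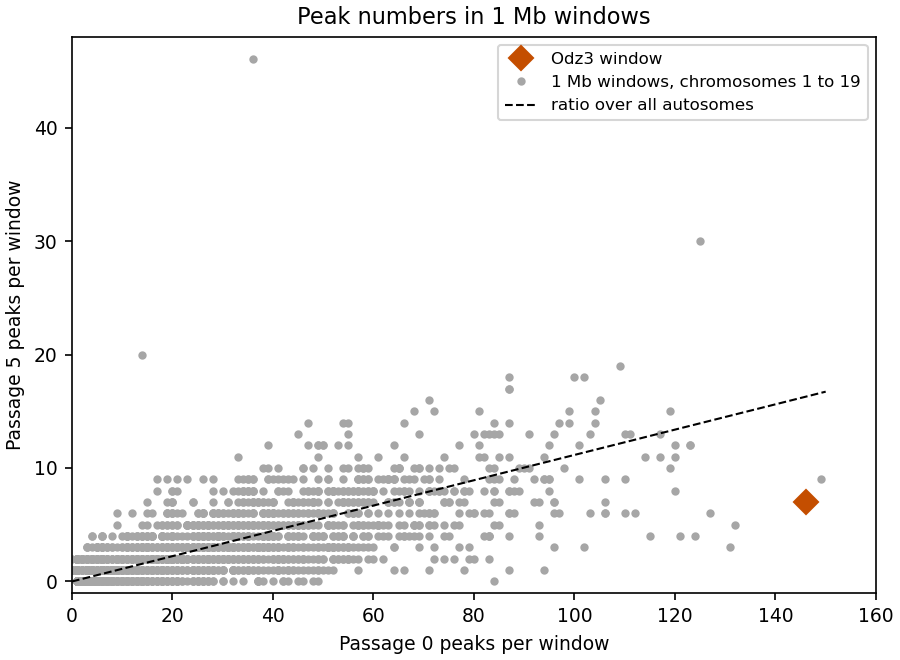
Passage 5 peaks against passage 0 peaks in 1 Mb windows of chromosomes 1 to 19 with at least 1 peak; the diamond is the Odz3 window and the dashed line the ratio over all autosomes. With 7 and 146 peaks, the Odz3 window lies below the line, as do the 4 other windows among the 5 with the most passage 0 peaks.

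Compared with autosomal peaks in general, the passage 0 peaks of the locus were higher and wider. Their median score was 155 and their median width 923 bp, against 129 and 850 bp on the autosomes. Of the 146, 16.4% were in the top 10% class of the list and 5.48% were at least 2 kb wide (2.40% to 10.5%), against 2.11% of autosomal peaks. The 38 other crowded windows were similar, with a median score of 143, a median width of 908 bp, 15.1% of peaks in the top class and 4.34% at least 2 kb wide. These values come from the list on which the window was chosen and are given as a description.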

How the data were processed

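5hmC was mapped in 1 library at passage 5 and 1 at passage 0, and for each the authors deposited a list of peaks, each peak with its own score. Per the submitters' processing notes, CASAVA 1.8, Bowtie 0.12.7 and MACS 1.4.1 were used with build mm9. The step each tool made, the peak threshold, duplicate handling and any input control are not stated there. The number of called peaks depends on depth and enrichment, which the lists do not hold.

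Start positions were raised by 1 to count from 1. Peaks were placed by their midpoint, and peaks of the lists were paired if they overlapped by 1 base or more. Window and gene borders came from the definition of the locus, and gene names, strand and promoter from RefSeq GRCm38.p6 tables. Intervals are exact (Clopper-Pearson) at 95%. Ratios used the interval of the matching share. No p-value was computed. The members, the comparisons and the named peaks (all passage 5 peaks, the highest, widest and border peaks of passage 0, the longest run and gap) were chosen with earlier results of these data known. Comparing the top 10% class with other crowded windows, and each side of the gene on its own, was added after the values were seen. Overlap counts equalled those of bedtools 2.31.1, and simulated lists of 6726 peaks were recovered at their known shares. Simulated peaks were placed either inside passage 0 peaks or beyond the chromosome ends, so this checks the counting only. Scripts ran under Python 3.11.15 with scipy 1.17.1, pandas 2.3.3 and numpy 2.4.6, and figures were drawn with matplotlib 3.10.9.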

Additional observations from a re-analysis of the deposited data

How the results depend on the processing

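For 8 values of the Odz3 window, 48 recomputed values stayed inside an interval around the reported value. For shares and ratios of peak numbers this was the exact one, for the ratio of covered shares (0.886 to 1.74) that of peak numbers rescaled, and for differences in median score (-61.4 to 30.2) and width (-213 to 68 bp) it came from binomial limits of each median. These intervals are wide, so this is no measure of robustness. The density ratio of inside to outside the gene, 1.23 as reported, ran from 1.06 with the upper 50% of scores in each list to 1.44 against the upstream side alone. The number of passage 5 peaks per 100 passage 0 peaks in the window, 4.79 as reported, was 2.48 for scores of at least 100, 2.11 in the upper 50% and 6.80 with peaks within 1 kb merged. The overlap of passage 0 peaks with passage 5 peaks, 3.42% as reported, was 1.65% for scores of at least 100 and 5.48% when gaps of up to 500 bases were allowed. Of 30 recomputed ratios and differences between inside and outside the gene, 2 changed side. The median score inside minus outside, -14.55 as reported, was 3.31 in the upper 50%, and the median width difference, -66 bp as reported, was 17 bp against the upstream side alone. The cause was not tested. No paired analysis was possible because each passage has 1 library, which also leaves none to omit.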
